A study of Mus musculus with 8 samples.

Results

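The peaks described here are the sites of open chromatin that lie in long terminal repeat (LTR) elements, in 4 populations of medullary thymic epithelial cells (mTEC). They were chosen from the authors' table of merged ATAC-seq peaks as every peak whose detailed annotation names the repeat class LTR. The rule uses the repeat annotation and no measured value, and it found 2883 of 74090 merged peaks (3.89%). All cells came from thymus of C57BL/6 mice, and all 4 sorting gates were CD45- Epcam+. mTEC-I cells were further MHCII low and Itgb4+, mTEC-II cells MHCII high, mTEC-III cells Ly6D+, and mTEC-IV cells MHCII low, Itgb4- and L1cam+. Each population has 2 libraries. No age or sex of the mice is given in the labels, and no label ties the paired libraries to separate mice, so the tests below measure the spread between libraries, which may be technical. ATAC-seq reads where a transposase can cut the DNA, so a value is a count of tags at a site and not a transcript level.

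LTR elements are what remains of retroviruses and related retrotransposons that inserted in the germ line. A full element carries an LTR at each end of an internal part that codes for the viral proteins. Most copies have recombined to a solitary LTR, which keeps the promoter and the binding sites that once drove the virus. In most cells such copies are silenced by DNA methylation and repressive histone marks, while some serve as enhancers or promoters of nearby genes. RepeatMasker sorts them into ERV1 (related to gammaretroviruses), ERVK (betaretrovirus-like), ERVL, and MaLR, the old non-autonomous relatives of ERVL that include the MT, ORR1 and MLT groups. The thymic medulla is known for opening and transcribing genes of other tissues, which the T cells developing there are tested against.

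MaLR was the largest of the families by number, with 1216 peaks (42.2% of LTR peaks). ERVK had 732 (25.4%), ERV1 468 (16.2%) and ERVL 432 (15.0%), and 35 peaks fell in small or uncertain families. The peaks carried 325 repeat names, of which 74 had at least 10 peaks each and together held 1984 peaks, while 72 names had a single peak. Names ending in -int, which mark the internal part of an element, made up 366 peaks (12.7%), so most peaks lay in LTRs themselves. Neighbouring peaks can share 1 element: 156 peaks (5.41%) lay within 1 kb of another peak of the same name.

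Some facts of the whole series touch these results. Total tags per library ran from 3606440 to 10374600, and 8.44% to 19.7% of a library's tags lay in merged peaks, with both mTEC-III libraries lowest. Values below are tags per 10000000, divided by a TMM factor (trimmed mean of M-values) between 0.580 and 1.33, and are called scaled tags. L1cam, a surface protein of the mTEC-IV gate, had 11.5 and 12.6 scaled tags within 10 kb of its transcription start site (TSS) in mTEC-IV and 1.17 to 3.36 elsewhere. H2-Aa, an MHC class II gene, had 238 and 237 (mTEC-I), 341 and 300 (mTEC-II), 312 and 264 (mTEC-III), then 178 and 152 (mTEC-IV). Other gate genes followed their gates less clearly. Ly6d had 53.7 and 68.7 in mTEC-III but also 42.9 and 55.5 in mTEC-I. Itgb4 had 92.0 and 73.7 in mTEC-I and 67.6 and 64.6 in the Itgb4- mTEC-IV. The 12 fixed tuft cell genes, of which all 12 had a peak, summed to 740 and 694 in mTEC-IV and to 156 to 230 elsewhere. Of 6 fixed thymocyte genes 3 had a peak (Ptprc, Cd3e and Cd8a did not), and their sum was 53.9 and 42.0 in mTEC-IV and 0.533 to 10.1 elsewhere. Cd79a, a B cell receptor gene, had 28.0 and 25.2 in mTEC-IV and 0 to 7.18 elsewhere. The tuft, thymocyte and Cd79a values move with mTEC-IV, and their part in the results on mTEC-IV below was not tested. Over all 8 libraries the sums ran from 362 to 541 for thymic epithelium (5 of 6 genes with a peak), 84.0 to 147 for myeloid cells (2 of 4), 81.6 to 167 for mesenchyme (2 of 3) and 1.02 to 9.21 for endothelium (1 of 3). In sorted bulk cells, fewer cells with an open site and a less open site in each cell cannot be told apart.

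All LTR peaks were annotated as intergenic or intronic, as were all LINE and SINE peaks. Their distal place against all merged peaks thus follows from the annotation that chose them. Of the LTR peaks, 65.5% were intergenic and 34.5% intronic. Among intronic or intergenic peaks outside repeats 49.5% were intergenic, and among all merged peaks 37.3%. The median distance of LTR peaks to the nearest TSS was 28.5 kb, against 15.5 kb for all peaks and 28.7 kb for intronic or intergenic peaks outside repeats. Within 10 kb of a TSS lay 593 LTR peaks (20.6%), and within 1 kb lay 9. MaLR peaks were intronic more often (41.3%) than ERV1 (29.3%), ERVK (30.1%) or ERVL peaks (29.4%), a description without a test. LTR peaks had a median width of 141 bp, the same as LINE and SINE peaks. It was 150 bp for intronic or intergenic peaks outside repeats and 159 bp for all merged peaks. The LTR peaks were spread over 2311 nearest genes, 1878 of them with 1 LTR peak, and no gene had more than 6.

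Few LTR peaks were called in many libraries. The authors' own peak lists, made in each library alone, overlapped 47.8% and 38.1% of LTR peaks in the mTEC-I libraries, 14.1% and 28.6% (mTEC-II), 4.16% and 15.5% (mTEC-III), then 24.5% and 31.9% (mTEC-IV). The same shares over all merged peaks were 59.1% and 52.5%, 25.3% and 37.3%, 14.2% and 26.3%, and 39.9% and 48.1%. LTR peaks were called less often than merged peaks at large in all 8 libraries. For intronic or intergenic peaks outside repeats the shares were 54.7% and 47.0% (mTEC-I), 14.6% and 28.9% (mTEC-II), 5.58% and 16.3% (mTEC-III), then 29.7% and 39.0% (mTEC-IV). The LTR shares lay below these too, but by little in mTEC-II and mTEC-III. Only 1 library called 1289 of the LTR peaks (44.7%, against 34.6% of all peaks), and all 8 libraries called 30 (1.04%, against 10.5%). Other repeats were alike in this: 45.5% of LINE and 47.4% of SINE peaks were called in 1 library only, and 0.610% and 0.815% in all 8. Of intronic or intergenic peaks outside repeats, 39.1% were called in 1 library only and 2.12% in all 8. The order of the families differed between populations. The mTEC-IV libraries called 17.5% and 22.6% of ERV1 peaks but 26.5% and 35.0% of MaLR peaks, while in mTEC-I the ERV1 share (55.8% and 42.9%) was above that of MaLR in both libraries. A peak is in the table because at least 1 library called it, and the number of calls moves with depth and with the share of tags in peaks, so these shares are a description with no test.

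**Figure D1:**
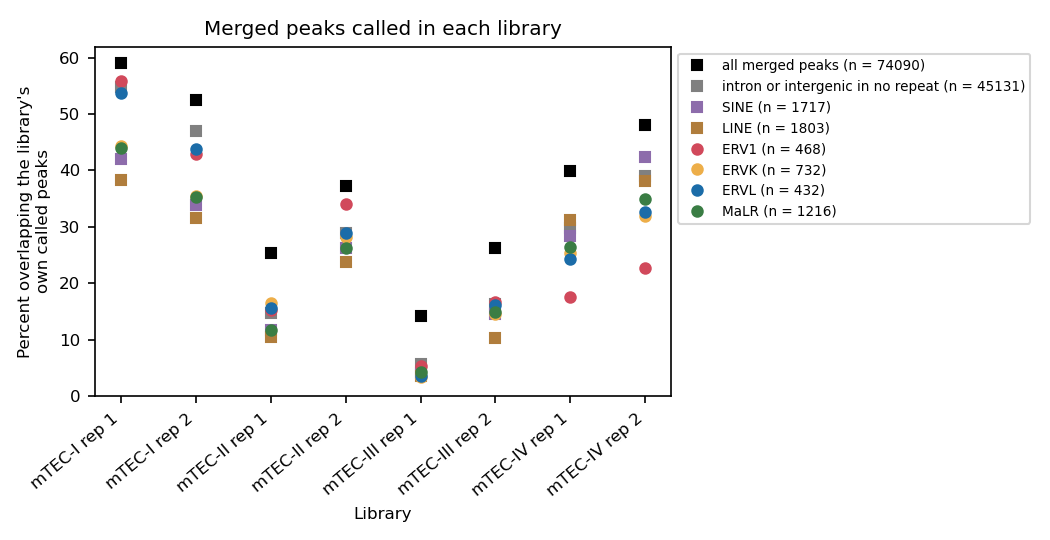
Percent of merged peaks that overlapped a peak called in each library alone, by library (x axis), for 4 LTR families (circles) and 4 comparison sets (squares). ERV1 lay lowest of all sets in both mTEC-IV libraries, at 17.5% and 22.6%, and every LTR family lay below all merged peaks in every library.

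Of the tags in merged peaks, LTR peaks took 2.04% and 1.97% in the mTEC-I libraries, 2.05% and 2.29% (mTEC-II), 2.20% and 2.14% (mTEC-III), then 1.73% and 1.78% (mTEC-IV). Both mTEC-IV values were below the other 6. Among LTR tags alone, the share of ERV1 was 19.2% and 18.3% (mTEC-I), 18.6% and 18.4% (mTEC-II), 17.6% and 17.5% (mTEC-III), then 13.6% and 13.5% (mTEC-IV). MaLR took 38.1% and 39.3%, 38.5% and 39.1%, 39.8% and 40.8%, and in mTEC-IV 44.8% and 45.0%. So the LTR tags of mTEC-IV held less ERV1 and more MaLR than those of any other library. ERVL set mTEC-I apart instead, with 17.6% and 17.8% of LTR tags against 14.9% to 15.6% in the other 6 libraries. The ERVK share was 23.1% and 22.7% in mTEC-I and 24.7% to 25.9% elsewhere.

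These shares need no scaling between libraries, and their differences were tested with an exact permutation test of an F statistic over all 105 ways to split 8 libraries into 4 pairs, for 9 shares. The smallest p this design allows is 0.00952. The test does not say which population differed. The exact p was 0.0286 for the ERV1 share of LTR tags, 0.0286 for the MaLR share, 0.0190 for the ERVL share and 0.105 for the ERVK share. Adjusted over the 9 tests by Benjamini-Hochberg, these permutation values became 0.0857, 0.0857, 0.0857 and 0.118, so none of the 4 passed 0.05, nor did the LTR share of all tags in peaks (exact p = 0.0571, adjusted 0.103). With only peaks over 1 kb from a TSS counted, 8 of the 9 permutation tests passed at an adjusted p of 0.0429, and the ERVK share of LTR tags did not (0.114). The exact permutation p of the shares of LTR tags was then 0.0286 (ERV1), 0.0190 (ERVL) and 0.0381 (MaLR), none of them smaller than with all peaks. These 3 passed only because other tests among the 9 had a smaller p, which lowers the adjusted values. In that setting LTR peaks held 4.00% and 3.91% of tags in mTEC-I, 4.29% and 4.44% (mTEC-II), 4.19% and 4.27% (mTEC-III), then 3.62% and 3.61% (mTEC-IV). LINE peaks over 1 kb from a TSS went the other way in mTEC-IV, with 2.60% and 2.55% of tags there and 1.96% to 2.23% elsewhere.

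**Figure D2:**
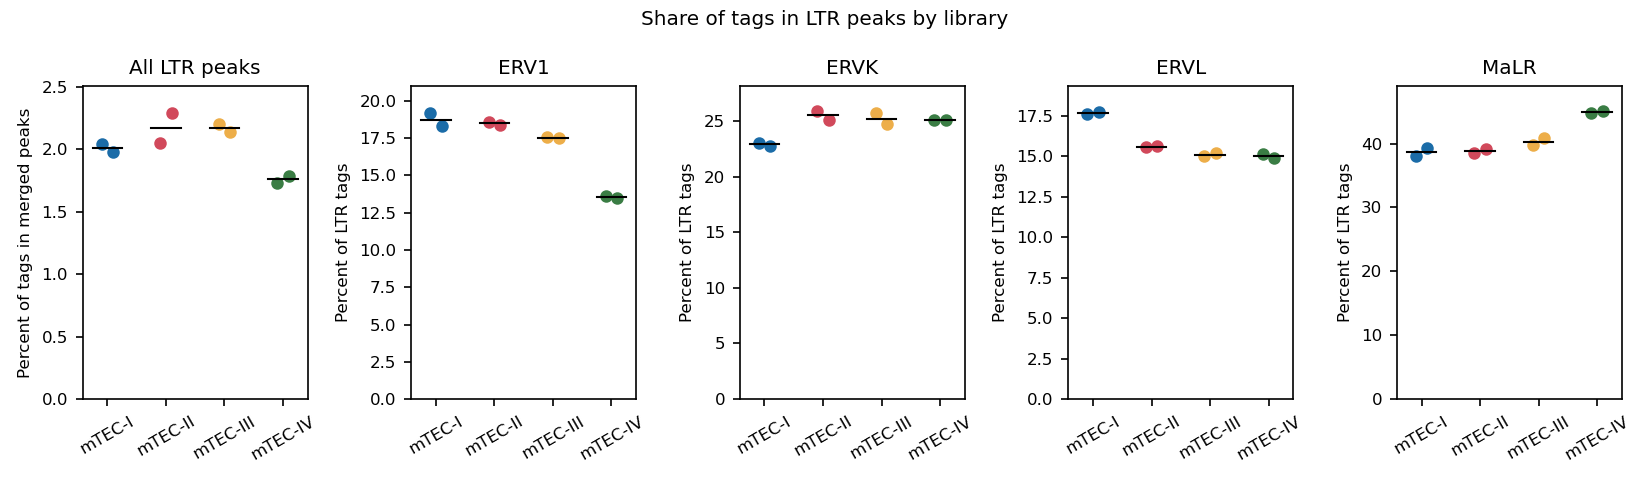
Left, percent of tags in merged peaks that lay in LTR peaks. Right, percent of LTR tags in ERV1, ERVK, ERVL and MaLR. Points are the 2 libraries of a population and bars their mean, and all y axes start at 0. The mTEC-IV libraries sat lowest for LTR and ERV1 and highest for MaLR, and the mTEC-I libraries highest for ERVL.

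Single peaks were compared by limma-trend on log2(scaled tags + 1), each population against the mean of the other 3, over the 58745 merged peaks with at least 10 scaled tags in at least 2 libraries. A call means a Benjamini-Hochberg adjusted p under 0.05 over all of these. Since the 3 are averaged, 1 of them may alone make a peak pass, and all 4 comparisons use the same 8 libraries. The filter kept 2080 LTR peaks (72.1%, against 79.3% of all peaks) and left out 803, and the kept families numbered 334 ERV1, 527 ERVK, 319 ERVL and 871 MaLR. A weak peak passes the filter only through the population where it is high, so counts over the kept peaks are a description. Of the 2080 LTR peaks, 1614 (77.6%) were called in at least 1 comparison, against 53.5% of all tested peaks.

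In mTEC-I, 469 LTR peaks were higher (22.5%) and 640 lower (30.8%), where 17.7% of all tested peaks were higher and 19.8% lower. Intronic or intergenic peaks outside repeats had 22.8% higher and 22.9% lower, LINE peaks 23.1% and 39.2%, and SINE peaks 14.9% and 29.98%, so the share of higher LTR peaks was near that of other distal peaks. The median log2 difference of LTR peaks was -0.36, and that of all tested peaks -0.11. ERVL had the largest share of higher peaks, 91 of 319 (28.5%), and MaLR the largest share of lower ones, 292 of 871 (33.5%). Of the higher LTR peaks, 395 had both mTEC-I libraries above the other 6. They were 18.99% of tested LTR peaks, against 15.4% of all tested peaks and 19.9% of intronic or intergenic peaks outside repeats. Scaling to total tags alone, as the authors deposited the values, moved the median of all peaks in mTEC-I to 0.41 and turned the split to 678 higher and 494 lower. Without replicate 1 of mTEC-I the counts were 129 higher and 269 lower, and without replicate 2 they were 121 and 240.

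In mTEC-II, 298 LTR peaks were higher (14.3%) and 77 lower (3.70%), against 5.32% and 3.39% of all tested peaks. The share of higher peaks was 6.52% outside repeats (intronic or intergenic), 13.2% in LINE and 7.32% in SINE peaks. ERV1 had 62 of 334 higher (18.6%), ERVK 92 of 527 (17.5%), ERVL 41 of 319 (12.9%) and MaLR 101 of 871 (11.6%). Both libraries of mTEC-II lay above the other 6 in 179 of the higher LTR peaks. They were 8.61% of tested LTR peaks, against 3.06% of all tested peaks. The count of higher peaks rested on single libraries: by limma it was 0 without replicate 1 of mTEC-II (439 had an unadjusted p under 0.05), 12 without its replicate 2, 152 and 138 without replicate 1 or 2 of mTEC-I, and 129 and 174 without replicate 1 or 2 of mTEC-IV. The count of lower peaks fell to 1 and 21 without the mTEC-II libraries, 25 and 22 without those of mTEC-I, and 18 and 24 without those of mTEC-IV, and rose to 126 and 141 without those of mTEC-III.

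In mTEC-III, 125 LTR peaks were higher (6.01%) and 17 lower (0.817%), against 2.59% and 1.43% of all tested peaks, and 5.52% of LINE peaks were higher. Both mTEC-III libraries lay above the other 6 in 51 of the higher LTR peaks. They were 2.45% of tested LTR peaks, against 1.29% of all tested peaks. The direction depended on the scaling, since under the authors' scaling to total tags the median of all peaks in mTEC-III fell from 0.03 to -0.70, and LTR peaks split into 47 higher and 296 lower. The medians of the 4 families in mTEC-III, 0.24 to 0.43 here, were then -0.44 to -0.25. Nor did the counts hold without single libraries. The limma count of higher peaks was 0 without replicate 1 of mTEC-III and without either mTEC-IV library, where 366, 419 and 448 peaks had an unadjusted p under 0.05. It was 80 without replicate 2 of mTEC-III, 36 and 35 without the mTEC-I libraries, and 25 and 69 without those of mTEC-II. The 17 lower peaks became 97 without replicate 2 of mTEC-III and between 0 and 11 without any other library (at 0, 110 to 131 had an unadjusted p under 0.05).

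In mTEC-IV, 457 LTR peaks were higher (21.97%) and 713 lower (34.3%), against 16.9% and 18.6% of all tested peaks. Intronic or intergenic peaks outside repeats had 19.4% higher and 24.6% lower, LINE peaks 37.0% and 31.0%, and SINE peaks 22.97% and 20.1%. The families were not alike. Of 334 ERV1 peaks 164 were lower (49.1%) and 53 higher (15.9%), with a median log2 difference of -1.22, while of 871 MaLR peaks 263 were lower (30.2%) and 232 higher (26.6%), with a median of -0.32. ERVK had 175 of 527 lower (33.2%) and 122 higher (23.1%), and ERVL 101 of 319 lower (31.7%) and 50 higher (15.7%). Both mTEC-IV libraries lay above the other 6 in 417 of the higher LTR peaks (background 15.3%) and below them in 478 of the lower ones (background 12.9%). The difference between families was not tested peak by peak. The ERV1 median in mTEC-IV was -1.16 under the authors' scaling and -1.20 with DESeq2 size factors. Without replicate 1 of mTEC-IV the LTR counts were 267 higher and 365 lower, and without replicate 2 they were 287 and 441.

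**Figure D3:**
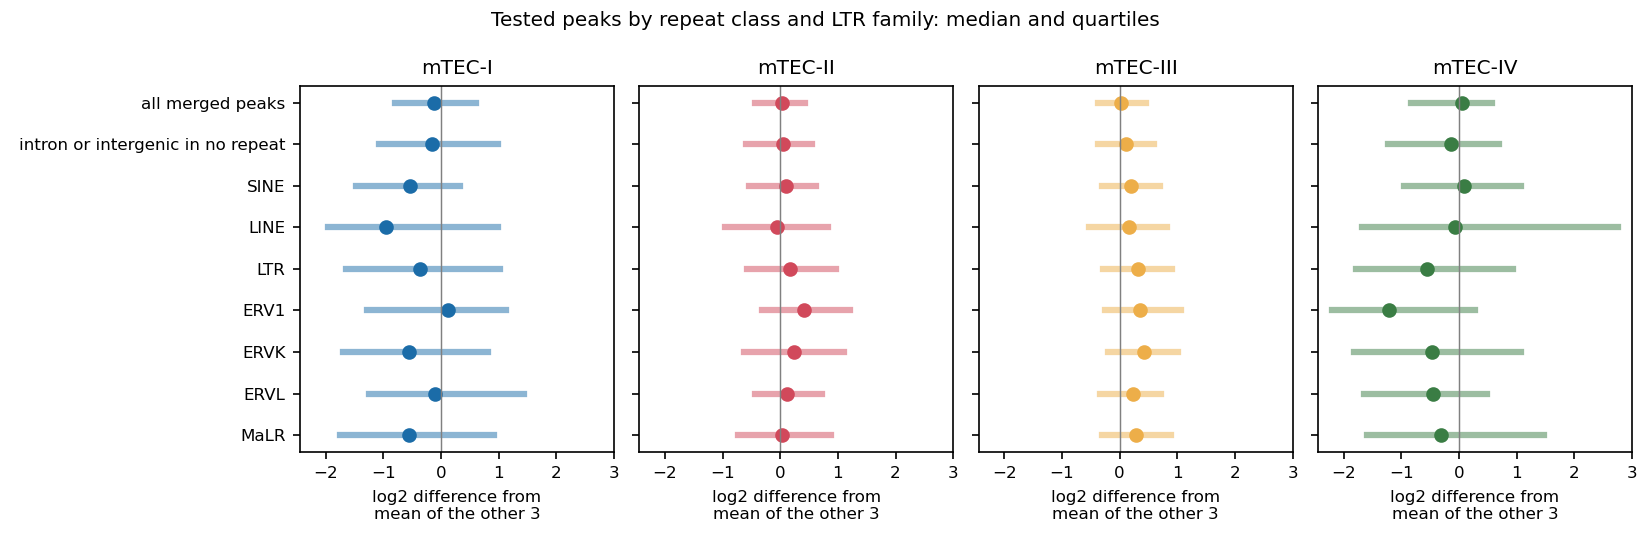
Median (point) and quartiles (bar) of the log2 difference of a population from the mean of the other 3, over tested peaks, for all merged peaks, 3 comparison sets, LTR peaks and the 4 LTR families. ERV1 had the lowest median of all sets in mTEC-IV, at -1.22.

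Summing all peaks of a repeat name gives each subfamily 1 value per library. A copy enters the sum only if at least 1 library called it, so copies open in a single population add to the sum of that population. The sums, their tests and medians over copies thus describe called copies, not all copies of a name in the genome. Of the 177 repeat names of all classes with at least 10 peaks, 74 were LTR names, and they were tested with the same limma-trend model, adjusted over the 177. In mTEC-I, 26 LTR names were higher and 23 lower (background 24.3% and 40.1% of all names). In mTEC-II, 21 were higher and 11 lower (19.8% and 18.6%). Under the authors' scaling those splits were 44 and 5 in mTEC-I and 26 and 4 in mTEC-II. In mTEC-III, 16 were higher and none lower by limma (14.1% and 2.82%), with 4 lower at an unadjusted p under 0.05 and none lower by edgeR or DESeq2. With DESeq2 size factors 14 were higher and 2 lower, and under the authors' scaling 1 was higher and 62 lower, so no direction holds for mTEC-III under both scalings, and without replicate 1 of mTEC-III 6 names were called, without replicate 1 of mTEC-I 9. In mTEC-IV, 21 LTR names were higher and 33 lower (40.1% and 29.4%).

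The clearest pattern among LTR names was that of ORR1, a rodent MaLR group of origin-region repeats. Its 7 names with at least 10 peaks were all higher in mTEC-IV and all lower in mTEC-I. The grouping by name prefix was made after their values were seen. ORR1A2, with 14 peaks, summed to 16.7 and 13.9 scaled tags in mTEC-I, 29.1 and 22.6 (mTEC-II), 67.2 and 51.3 (mTEC-III), then 272 and 245 (mTEC-IV). Its log2 difference in mTEC-IV was 3.13 ± 0.21 (SE, limma adjusted p = 2.05e-07). Of its 14 peaks 10 passed the filter, and all 10 were called higher in mTEC-IV. A weak copy passes only through the population where it is high, so this count is no support for the rise. The sum is not free of such a choice either, since it holds only copies that some library called. ORR1B1, with 24 peaks, summed to 32.4 and 36.3 (mTEC-I), 113 and 133 (mTEC-II), 175 and 181 (mTEC-III), then 418 and 390 (mTEC-IV), a log2 difference of 2.14 ± 0.12, limma adjusted p = 6.29e-08. For both names mTEC-I was lowest and mTEC-IV highest with no overlap between those libraries and the rest.

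ORR1C1 rose in mTEC-IV by 2.54 ± 0.22 (limma adjusted p = 1.70e-06) and ORR1D1 by 2.46 ± 0.21 (1.68e-06), each over 14 peaks. ORR1C2 differed by 1.69 ± 0.11 (2.05e-07), ORR1E by 0.41 ± 0.07 (0.000437) and ORR1D2 by 0.34 ± 0.08 (0.00329), so the shift was smallest for the names with most peaks, ORR1E with 100 and ORR1D2 with 47. In mTEC-I the 7 log2 differences ran from -2.55 (ORR1B1) to -0.22 (ORR1E). Under the authors' scaling all 7 stayed higher in mTEC-IV, but in mTEC-I 5 of 7 were called lower and 2 lay above 0, ORR1E at 0.32, and with DESeq2 size factors 6 were called lower. Leaving out either mTEC-I library also ended the call of ORR1E in mTEC-I. Over all ORR1 names, 100 of 216 tested peaks were called higher in mTEC-IV (46.3%) and 39 lower (18.1%), and in mTEC-I 23 were higher and 94 lower (43.5%). For LINE peaks the higher and lower shares were 37.0% and 31.0% in mTEC-IV, then 23.1% and 39.2% in mTEC-I. The background over every peak that passed the filter was 16.9% and 18.6%, then 17.7% and 19.8%. Calls higher in mTEC-IV or lower in mTEC-I were thus common among LINE peaks too, and ORR1 was not tested against them. The rise of ORR1 in mTEC-IV moves with the tuft and thymocyte lists and with Cd79a, given above, and their part in it was not tested.

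Single ORR1 peaks show what the sums hold. An ORR1B1 peak at chr17:35396138-35396300 (mm9), intergenic and 3.82 kb from the TSS of H2-D1, an MHC class I gene, had 3.95 and 1.60 scaled tags in mTEC-I, 16.3 and 24.1 (mTEC-II), 26.9 and 25.7 (mTEC-III), then 56.8 and 58.8 (mTEC-IV). It rose in mTEC-IV by 2.21 on the log2 scale (limma adjusted p = 0.000130) and its values in mTEC-I lay below all others. Another ORR1B1 peak ran against its name. At chr7:118748403-118748640, in an intron of Galnt18, which codes for an enzyme of protein O-glycosylation, it had 46.6 and 32.7 (mTEC-II), 43.6 and 38.0 (mTEC-III), but 0.879 and 2.13 (mTEC-I) and 1.43 and 4.21 (mTEC-IV). An ORR1A2 peak at chr16:31465181-31465314, intergenic and 36.4 kb from the TSS of Bdh1, a mitochondrial enzyme of ketone body metabolism, had 50.3 and 39.9 in mTEC-IV and 2.13 to 15.4 elsewhere. Beside ORR1, RLTR12B and RLTR9A of ERVK were higher in mTEC-IV, by 1.69 ± 0.15 (limma adjusted p = 1.69e-06) and 1.45 ± 0.17 (1.46e-05).

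**Figure D4:**
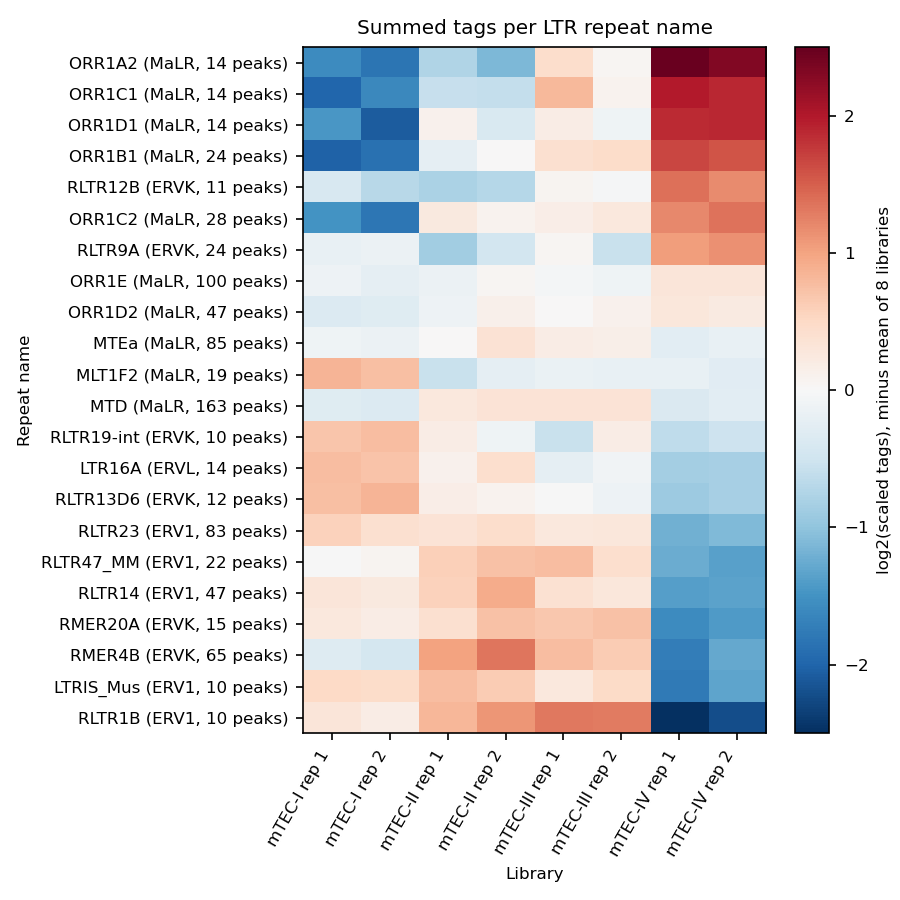
Summed tags of 22 LTR repeat names (rows) in the 8 libraries (columns), as log2(scaled tags) minus the mean of the row, red above and blue below. The ORR1 names, RLTR12B and RLTR9A were highest in both mTEC-IV libraries, and the rows from RLTR23 down were lowest there.

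Names lower in mTEC-IV came from all 4 families, with 6 of 10 ERV1, 11 of 22 ERVK, 5 of 10 ERVL and 11 of 32 MaLR names. The 6 with the largest falls were ERV1 and ERVK names. RLTR1B, an ERV1 name with 10 peaks, had 63.1 and 58.2 scaled tags in mTEC-I, 90.9 and 110 (mTEC-II), 128 and 126 (mTEC-III), then 7.18 and 11.03 (mTEC-IV). It had the largest fall in mTEC-IV of the 74 LTR names, a log2 difference of -3.22 ± 0.21 (limma adjusted p = 1.64e-07). Of its 10 peaks 6 passed the filter, which weak copies pass only where they are high, and all 6 were called lower. The log2 difference was -2.02 ± 0.16 for LTRIS_Mus (ERV1), -1.96 ± 0.13 for RMER20A (ERVK), -1.81 ± 0.09 for RLTR14 (ERV1) and -1.72 ± 0.11 for RLTR47_MM (ERV1), all called by limma. RLTR23, the ERV1 name with the most peaks at 83, had 1562 and 1395 (mTEC-I), 1330 and 1428 (mTEC-II), 1263 and 1272 (mTEC-III), then 458 and 489 (mTEC-IV). Its log2 difference was -1.53 ± 0.07 (limma adjusted p = 4.46e-08), and both mTEC-IV sums lay far below those of the other 6 libraries. Of its 61 tested peaks 48 were called lower in mTEC-IV and 5 higher, where 18.6% of all tested peaks were lower and 16.9% higher. This count is a description, since weak copies pass the filter only where they are high.

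RMER4B, an ERVK name with 65 peaks, joined the fall in mTEC-IV to a rise in mTEC-II. It summed to 514 and 471 (mTEC-I), 1293 and 1631 (mTEC-II), 1100 and 993 (mTEC-III), then 195 and 266 (mTEC-IV). The log2 difference was 1.57 ± 0.12 in mTEC-II (limma adjusted p = 1.31e-05), 0.94 ± 0.12 in mTEC-III (0.000649) and -1.99 ± 0.12 in mTEC-IV (1.04e-07). The populations thus fell in the order mTEC-II, mTEC-III, mTEC-I, mTEC-IV, with no overlap between neighbours. The strongest of the 65 copies held 5.13% of the RMER4B tags, so the sums did not rest on 1 copy. Of the 54 copies that passed the filter, 42 were called higher in mTEC-II and 42 lower in mTEC-IV. Weak copies pass the filter only where they are high, so these counts are a description. The RMER4B sums likewise hold only copies that some library called. Under the authors' scaling the difference in mTEC-III was 0.13 and not called (limma adjusted p = 0.446), and that in mTEC-I, called lower here at -0.51, was 0.036. The call in mTEC-I was also lost without its replicate 2. The 9 fixed mature mTEC genes summed to 1622 and 1499 (mTEC-II), 1409 and 1341 (mTEC-III), 1097 and 1048 (mTEC-I), and 871 and 778 (mTEC-IV). That order of the sums is the same, but single genes did not all follow it. H2-Aa had 238 and 237 in mTEC-I against 178 and 152 in mTEC-IV, and H2-Ab1 235 and 214 against 140 and 132. Aire was lower in mTEC-I, with 19.7 and 20.3 against 36.7 and 33.1 in mTEC-IV, as was Cd80, with 25.9 and 18.7 against 33.1 and 32.0. The part of these genes in the RMER4B values was not tested.

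The peak of RMER4B with the most tags, at chr19:5170602-5170870 in an intron of Pacs1, which codes for a sorting protein of the trans-Golgi network, had 47.8 and 54.5 scaled tags in mTEC-I, 68.8 and 66.2 (mTEC-II), 36.9 and 46.2 (mTEC-III), then 1.43 and 9.98 (mTEC-IV). The third, at chr19:10885922-10886185 in an intron of Cd6, a T cell surface receptor, had 14.9 and 20.8, 58.3 and 59.99, 47.0 and 48.2, and 1.43 and 5.78. Both were lowest in mTEC-IV, and they differed in the level held by mTEC-I. The median over all 65 RMER4B peaks was 4.38 and 3.74 (mTEC-I), 17.5 and 23.4 (mTEC-II), 13.4 and 12.3 (mTEC-III), then 1.43 and 2.63 (mTEC-IV), where 23 and 11 peaks had no tag. The same median over the 24 ORR1B1 peaks was 0.436 and 0.533 in mTEC-I, where 10 and 9 had no tag, and 11.1 and 13.7 in mTEC-IV, where 1 and 0 had none.

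**Figure D5:**
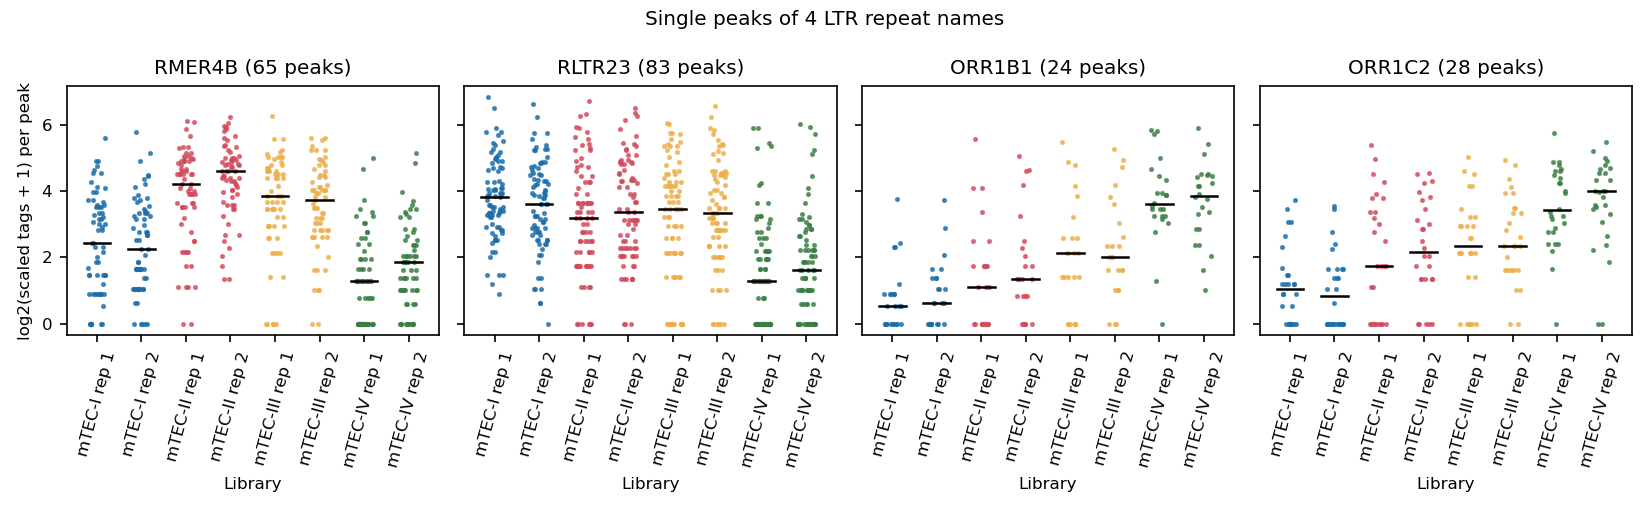
Each point is 1 peak of RMER4B, RLTR23, ORR1B1 or ORR1C2 in 1 library, as log2(scaled tags + 1), and bars are medians over all peaks of the name. Points are spread sideways at random. The bulk of RMER4B and RLTR23 peaks lay low in mTEC-IV and the bulk of ORR1B1 and ORR1C2 peaks lay low in mTEC-I. These 4 names were picked after their values were seen.

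The names that rose most in mTEC-I came from 3 families. MLT1F2 (MaLR, 19 peaks) had 235 and 218 scaled tags in mTEC-I and 88.6 to 116 in the other 6 libraries (1.06 ± 0.13, limma adjusted p = 4.08e-05). RLTR13D6 (ERVK, 12 peaks) had 233 and 248 (mTEC-I), 127 to 155 over mTEC-II and mTEC-III, with mTEC-IV lowest at 74.0 and 78.3 (1.06 ± 0.11, adjusted p = 1.51e-05 by limma). LTR16A (ERVL, 14 peaks) rose by 0.97 ± 0.11, with 345 and 332 in mTEC-I and 113 and 114 in mTEC-IV, and RLTR19-int (ERVK, 10 peaks) by 0.97 ± 0.19. For all 4 names both mTEC-I libraries lay above the other 6. The 18 MLT1 names were grouped by prefix after the values were seen. In mTEC-I 12 of them were higher and 2 lower, against 24.3% and 40.1% of all repeat names. Of 347 tested MLT1 peaks 97 were higher (28.0%) and 87 lower (25.1%), with a median log2 difference of 0.02. Those shares were 22.5% and 30.8% over tested LTR peaks and 17.7% and 19.8% over all tested peaks. Under the authors' scaling 136 MLT1 peaks were higher and 61 lower, with a median of 0.54. In mTEC-II the names with the largest falls were ORR1A2 (-1.24 ± 0.21), RLTR12B (-0.98 ± 0.15), RLTR9A (-0.88 ± 0.17) and ORR1C1 (-0.78 ± 0.22), each of them highest in mTEC-IV. The call of ORR1C1 in mTEC-II was lost without either mTEC-II library and under the authors' scaling. The 4 names with the largest rise in mTEC-II were RMER4B, RLTR1B (1.24 ± 0.21), RLTR14 (1.01 ± 0.09) and LTRIS_Mus (0.92 ± 0.16). The mean they are set against includes mTEC-IV, where all 4 names were low, and none of the 8 tested LTRIS_Mus peaks was itself called higher in mTEC-II by limma. The 4 largest rises in mTEC-III were those of RLTR1B (1.69 ± 0.21), RMER4B, RMER20A (0.92 ± 0.13) and RLTR47_MM (0.79 ± 0.11), and under the authors' scaling RMER20A was at 0.12 and RLTR47_MM at -0.017, neither called.

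Of the 5 LTR names with the most peaks, RLTR23 and RMER4B were given above, and the other 3 had smaller differences. MTD (MaLR, 163 peaks) had 1325 and 1296 scaled tags in mTEC-I, 1965 and 2095 (mTEC-II), 2072 and 2073 (mTEC-III), then 1274 and 1367 (mTEC-IV). It was thus lower in both MHCII low gates, at -0.43 ± 0.07 in mTEC-I and -0.42 ± 0.07 in mTEC-IV (limma adjusted p = 0.000363 and 0.000281). Its single peaks went both ways, with 25 of 122 tested called higher in mTEC-IV and 43 lower. Under the authors' scaling the value of MTD was 0.12 for mTEC-I, -0.36 for mTEC-III, and its call in mTEC-IV was lost. MTEa (MaLR, 85 peaks) was called higher in mTEC-II (0.25 ± 0.09, limma adjusted p = 0.0476), but not with DESeq2 size factors or without any of 6 libraries, namely replicate 2 of mTEC-II, replicate 1 of mTEC-IV and both of mTEC-I and mTEC-III. It differed by -0.30 ± 0.09 in mTEC-IV (adjusted p = 0.0117 by limma), a call lost without replicate 1 of mTEC-IV and under the authors' scaling.

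Among single peaks called higher in mTEC-I with both libraries above the other 6, the largest difference was at an RMER17C-int peak (ERVK), chr11:12445929-12446100, intergenic and 81.1 kb from the TSS of Cobl, which nucleates actin filaments. It had 42.9 and 40.6 scaled tags in mTEC-I and 0 to 3.36 elsewhere (4.46 ± 0.66, limma adjusted p = 0.000246). An MLT1C peak (MaLR) at chr19:48673271-48673470 in an intron of Sorcs3, a sorting receptor of neurons, had 54.3 and 50.7 in mTEC-I and 0 to 6.23 elsewhere. Peaks of RLTR41 (ERV1) at chr3:36302414-36302641, 71.9 kb from Mir7009, and RLTR33 (ERVK) at chr13:22139535-22139661, 4.50 kb from the histone gene Hist1h2bj, had 0 to 4.11 outside mTEC-I, though DESeq2 did not call the RLTR41 peak (adjusted p = 0.221). At the 3 largest falls mTEC-I was all but closed and the other populations were open to different degrees. An MTD peak at chr11:68312769-68312991, 3.64 kb from Pik3r6, a regulatory subunit of a PI3 kinase, had 0.879 and 0.533 in mTEC-I and 16.8 to 46.0 elsewhere (-4.23 ± 0.36, limma adjusted p = 2.96e-06). A second MTD peak at chr4:116808631-116808851, 2.17 kb from the kinase gene Plk3, had 0.879 and 1.07 in mTEC-I and 16.3 to 68.8 elsewhere. An RMER5 peak (ERV1) at chr16:74132261-74132436 in an intron of Robo2, an axon guidance receptor, had no tag in mTEC-I, 3.89 to 17.4 in mTEC-II and mTEC-III, and 60.4 and 54.6 in mTEC-IV.

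In mTEC-II the largest rise was at an RMER4B peak, chr10:115961224-115961364 in an intron of Cnot2, a subunit of the CCR4-NOT deadenylase complex, with 16.3 and 23.4 scaled tags in mTEC-II and 0 to 4.73 elsewhere (3.52 ± 0.66, limma adjusted p = 0.00836). MLT1D (chr15:43517322-43517490, 184 kb from Tmem74), ORR1A2-int (chr15:75783787-75783927, 12.5 kb from Zfp623) and ORR1E (chr13:69929169-69929309, 19.5 kb from Med10, a Mediator subunit), all MaLR, rose by 3.41, 3.31 and 3.24. None of these 4 calls held without replicate 1 of mTEC-II, and all but that of MLT1D were also lost without its replicate 2, that of ORR1E without replicate 2 of mTEC-IV too. The falls in mTEC-II were at peaks shared by other populations. An LTR41 peak (ERVL) at chr2:58589921-58590134 in an intron of Upp2, a uridine phosphorylase, had no tag in mTEC-II, where mTEC-I had 18.4 and 19.2, and 2.16 to 8.39 elsewhere. An MLT1B peak at chr10:69594862-69595081 in an intron of Ccdc6 had none in mTEC-II and 16.5 and 24.2 (mTEC-IV), and an SRV_MM-int peak at chr2:39182226-39182519 had 8.15 and 0 (mTEC-II) and 50.3 and 54.1 (mTEC-IV). The first 2 calls were lost without replicate 1 of mTEC-II, and the third without its replicate 2 or replicate 1 of mTEC-IV.

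In mTEC-III the 4 largest rises were at ERVK and ERV1 peaks. RLTR22_Mur (ERVK) at chr9:88632153-88632307, 5.54 kb from Bcl2a1d, an antiapoptotic relative of Bcl2, had 23.5 and 29.8 scaled tags in mTEC-III, 6.99 and 7.79 in mTEC-II and 0 to 3.59 elsewhere (3.29 ± 0.56, limma adjusted p = 0.0135). RLTR17 (ERVK) at chr4:111768549-111768747 in an intron of Skint4, of a family related to the thymic selecting element Skint1, had 52.1 and 28.7 in mTEC-III, 14.0 and 10.1 in mTEC-II and 0.717 to 7.36 elsewhere. RLTR1B at chr16:36098184-36098338, 16.9 kb from Ccdc58, and RLTR8 (ERVK) at chr3:17744611-17744785, 49.0 kb from Mir124a-2, were next highest in mTEC-II as well. For all 4 peaks mTEC-II thus came after mTEC-III. None of the 4 calls held without replicate 1 of mTEC-III or without either mTEC-IV library. The lower peaks were an RLTR33 peak 21.03 kb from Endod1, an MLT1A peak in an intron of Slc24a4 and an MMVL30-int peak 3.99 kb from Rbm12b1, with adjusted p from 0.0145 to 0.0289 by limma. Each of these 3 calls was lost without either mTEC-IV library and without replicate 2 of mTEC-I, and the last 2 also without replicate 1 of mTEC-III.

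In mTEC-IV the largest rise was at an MLT-int peak (MaLR), chr3:77862397-77862561, intergenic and 1086 kb from the nearest TSS, with 33.1 and 36.8 scaled tags in mTEC-IV and 0 to 1.07 elsewhere (limma adjusted p = 2.16e-05). An LTR37A peak (ERV1) at chr1:55957610-55957766, 30.4 kb from 9130227L01Rik, had 35.2 and 43.6 in mTEC-IV and 0 to 2.33 elsewhere. An ORR1C2 peak at chr12:56041984-56042176 in an intron of Baz1a, a subunit of chromatin remodelling complexes, had 53.2 and 44.1 in mTEC-IV and 0 to 6.16 elsewhere, and an RLTR24 peak (ERV1) at chr4:99362693-99362889, 19.5 kb from Alg6, an enzyme of N-glycan assembly, had 27.3 and 27.8 and 0 to 2.33. Outside mTEC-IV these 4 sites were all but closed. The falls were sites open in all 6 other libraries. An MLT1H peak (MaLR) at chr7:35623440-35623787, 25.9 kb from Chst8, a sulfotransferase, had 25.4 to 43.1 in the 6 libraries and 0 and 1.05 in mTEC-IV (-4.56 ± 0.37, limma adjusted p = 1.30e-06). An ORR1C2-int peak at chr8:34972695-34972940 in an intron of Rbpms, an RNA-binding protein, had 21.5 to 38.2 against 0 and 1.58, so this internal ORR1 peak ran against the sums of the ORR1 LTR names. An RLTR23 peak at chr4:41392702-41392910 in an intron of Kif24, a kinesin, had 21.4 to 48.9 against 0 and 2.63.

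The most open LTR peak of each family was not always shared by all populations. For ERV1 it was a MER21B peak at chr2:164347376-164347677, 24.5 kb from Pigt, part of the enzyme that attaches GPI anchors, with 28.5 and 24.6 scaled tags in mTEC-I and 84.1 to 106 elsewhere (-1.80 ± 0.17, limma adjusted p = 8.20e-06). For MaLR it was an MLT1I peak at chr2:30319528-30319799, 10.1 kb from Ier5l, with 87.6 to 165 over the 8 libraries. For ERVL it was an LTR16A peak at chr19:35950000-35950345, 182 kb from Htr7, a serotonin receptor, with 62.6 to 129 in 6 libraries and 1.43 and 11.6 in mTEC-IV (-3.98 ± 0.40, adjusted p = 6.02e-06 by limma). This one peak held 31.0% of the LTR16A tags. For ERVK it was an intergenic RLTR11A peak 118 kb from Vmn1r238, with 35.0 to 107 in 7 libraries and 161 in replicate 1 of mTEC-III. Whether reads of other copies were placed at that peak was not tested, so its rank is uncertain.

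Of the fixed marker genes, 4 had a called LTR peak within 100 kb of which they were the nearest gene. Of these peaks, 2 were called lower in mTEC-IV. An RMER4B peak at chr16:10466534-10466674, 13.6 kb from Ciita, the master activator of MHC class II genes, had 0 and 1.05 scaled tags in mTEC-IV, 2.19 and 1.07 (mTEC-I), 3.50 and 16.4 (mTEC-II) and 10.1 and 8.21 (mTEC-III) (-2.10 ± 0.62, limma adjusted p = 0.0136). An RMER19B peak (ERVK) at chr17:34415689-34415829, 8.96 kb from H2-Aa, had 2.88 and 1.58 (mTEC-IV), 1.75 and 3.74 (mTEC-I) and 9.23 to 13.2 in mTEC-II and mTEC-III (-1.38 ± 0.51, adjusted p = 0.0452 by limma). The mTEC-I and mTEC-IV libraries overlapped at the second peak, and at the first those of mTEC-IV lay just below those of mTEC-I. The other 2 were called higher in mTEC-IV. An MTD peak at chr6:116390806-116390943 in an intron of Alox5, the lipoxygenase that starts leukotriene synthesis and a tuft cell gene, had 21.6 and 20.5 in mTEC-IV, 0.436 and 0.533 in mTEC-I, and 3.12 to 9.32 elsewhere (2.55 ± 0.54, limma adjusted p = 0.00137). An MTB peak (MaLR) at chr6:124844210-124844338, 6.05 kb from Cd4, had 24.4 and 17.9 in mTEC-IV and 0 to 1.56 elsewhere (limma adjusted p = 9.64e-05). It is itself 1 of the peaks in the thymocyte sum given above, in which Lck added 29.5 and 24.2 in mTEC-IV.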

How the data were processed

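ATAC-seq of 8 libraries, 2 per sorted population, was analysed, with groups taken from the sample titles. The mm9 genome, HOMER, Picard 1.108 and bcl2fastq 2.15.0.4 are named in the notes on processing by the submitters. For the aligner, any shift of read ends and the handling of reads that map to several repeat copies, the entry is "not given in the sources used here". They bear on young, near-identical repeats, whose values are therefore uncertain. Peaks of each library came from HOMER findPeaks, per the file headers (false discovery rate 0.001, signal 4-fold over the surrounding 10000 bp), and the deposited lists carry a score per peak that was not used for any result. The deposited signal of the merged table is in tags per 10000000 of a library's total tags. Whole read ends, at 0.5 tags each, were recovered for 100% of values, within the rounding of the file.

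Repeat class, family and name were read from the table's detailed annotation. Signal was scaled by TMM factors (edgeR 4.0.16) and tested as log2(value + 1) by limma 3.58.1 in R 4.3.3. Per-library values carry the counting error of the tags behind them, and a scaled tag stood for fewer read ends in shallow libraries. Detection was an overlap of at least 1 bp with a library's own peaks. The edgeR quasi-likelihood test and DESeq2 1.42.0 on the recovered read ends were alternatives, and the limma step was tested on simulated data. Fold changes on this scale are understated at low values. Host genes of introns were named from RefSeq (GRCm38.p6) by transcript, and all coordinates are the authors' mm9.

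The repeat names in the text are, for each population, the 4 with the largest rise and fall, and the 5 with the most peaks, and the single peaks are the 4 largest rises and 3 largest falls with both libraries beyond the other 6, the strongest of each family, and those nearest a marker gene. ORR1C2, ORR1D2 and the further ORR1B1, ORR1A2 and RMER4B copies were added after their values were seen. The members and lists were chosen with earlier results of these data known. Part of the marker gene lists, including 1 gene that is not reported here, was left out of the text.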

Additional observations from a re-analysis of the deposited data

How the results depend on the processing

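Many LTR peaks have low values, and 803 of 2883 were left out by the filter. Counts of LTR peaks in mTEC-I and mTEC-IV stayed within 1.5 times under the scalings, pseudocount and tools run, and only the higher count in mTEC-I passed it without the filter on low values, where 715 LTR peaks were higher in mTEC-I. For mTEC-II, edgeR called 464 higher and 47 lower, DESeq2 25 lower, and a pseudocount of 5 gave 207 lower. For mTEC-III, edgeR called 276 higher and 6 lower, DESeq2 1 lower, a pseudocount of 5 gave 210 higher and 72 lower, and the authors' scaling 47 higher, 296 lower and 63 repeat names called. With at least 5 peaks per name, which tests more names, 97, 61, 35 and 100 LTR names were called in mTEC-I to mTEC-IV. Over peaks more than 1 kb from a TSS, 8 share tests passed (exact permutation test, adjusted p = 0.0429). The exact p of the ERV1, ERVL and MaLR shares of LTR tags was no smaller there than with all peaks. Without 1 library at a time, LTR peaks ran from 121 to 486 higher and 240 to 702 lower for mTEC-I, from 0 to 339 and 1 to 141 for mTEC-II, from 0 to 80 and 0 to 97 for mTEC-III, and from 267 to 481 and 365 to 760 for mTEC-IV. Names called ran from 33 to 51, 23 to 33, 6 to 21 and 47 to 55. The lone library left in a population is then assumed to vary like the others. The exact adjusted p of the shares ran from 0.0514 to 0.371 in those settings, in the order LTR, ERV1, ERVK, ERVL and MaLR of tags in peaks 0.0514 to 0.135, 0.0536 to 0.143, 0.0536 to 0.135, 0.0514 to 0.135 and 0.0514 to 0.371, and as shares of LTR tags ERV1 0.0514 to 0.110, ERVK 0.0857 to 0.143, ERVL 0.0514 to 0.110 and MaLR 0.0536 to 0.114.

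Single names turned sign under the authors' scaling, which moves the median of all peaks: in mTEC-I MTD to 0.12, ORR1E to 0.32, MTEa to 0.38 and RMER4B to 0.036, and in mTEC-III MTD to -0.36, MTEa to -0.59, RLTR23 to -0.45 and RLTR47_MM to -0.017. Replicate numbers did not pair the libraries, since same-numbered deviations correlated at -0.014 to 0.032 over tested peaks. With the replicate number as a block, limma called 479 and 646 LTR peaks (higher and lower, mTEC-I), 295 and 83 (mTEC-II), 130 and 18 (mTEC-III), then 458 and 712 (mTEC-IV), and 48, 31, 16 and 53 names were called. The exact block p of the shares was at least 0.0417 before adjustment and 0.214 to 0.333 after. The cause of these changes was not tested.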

Other observations

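LTR peaks of other name groups, gathered by prefix after the values were seen, are given as values only, beside 34.3% lower and 21.97% higher in mTEC-IV and 14.3% higher in mTEC-II for all tested LTR peaks. The RMER names (382 peaks, mostly ERVK) had 124 of 281 tested peaks called lower in mTEC-IV by limma (44.1%) and 79 higher in mTEC-II (28.1%), with medians of -1.08 and 0.57 on the log2 scale. The MT names (475 peaks, MaLR) had 122 of 337 lower in mTEC-IV (36.2%) and 71 higher (21.1%), and the MLT1 names (473 peaks, MaLR) 113 of 347 lower (32.6%) and 69 higher (19.9%). Peaks in internal parts of elements (366) had 85 of 248 tested lower (34.3%) and 49 higher (19.8%) in mTEC-IV. The MT, MLT1 and internal shares lay near those of all LTR peaks.

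Of the 2080 tested LTR peaks, 305 were called lower in mTEC-I and higher in mTEC-IV, and 316 the reverse. Of all 58745 tested peaks, 5785 and 5634 were. LTR peaks were also called more often at large, with 77.6% called in at least 1 population against 53.5% of all tested peaks. The mTEC-I and mTEC-IV comparisons share libraries, so the counts are not independent of each other.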
